A study of Mus musculus with 8 samples.

Results

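The genes described here were 10 components of the Notch pathway, chosen by name and matched to the array table through their Ensembl gene IDs: the receptors Notch1, Notch2 and Notch3, the ligands Jag1, Jag2 and Dll1, the receptor-modifying enzyme Lfng, and the target genes Hes1, Hey1 and Heyl. All 10 were among the 22237 genes measured in primary podocytes and parietal epithelial cells (PECs) of the mouse glomerulus. Podocytes were grown from decapsulated glomeruli of female Pod-rtTA/LC1/R26R mice and PECs from capsulated glomeruli of female PEC-rtTA/LC1/R26R mice, in which a podocalyxin promoter fragment drives rtTA in parietal cells. In both lines doxycycline induced Cre, which switched on beta-galactosidase in the targeted cells, and the outgrowths were sorted on a fluorescent substrate of that enzyme. The mice had a mixed background, 75% Sv129, and were adult. The 4 groups of 2 arrays were podocytes in EGM-MV, podocytes in RPMI, PECs in EGM-MV and PECs in RPMI. EGM-MV is a growth factor-enriched medium for microvascular endothelial cells and RPMI a basal medium, and the EGM-MV cultures also received the larger share of fetal calf serum. Each of 2 independent cultures per cell type was passaged repeatedly and kept in both media before RNA isolation.

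Notch receptors span the cell membrane and are activated by ligands of the Jagged and Delta families on neighbouring cells. Ligand binding leads to proteolytic release of the intracellular part of the receptor, which enters the nucleus and, with the DNA-binding protein RBPJ, switches on genes of the Hes and Hey families. In the developing kidney the pathway is needed for the formation of podocytes and proximal tubules, and its reactivation in mature podocytes of mice is known to damage the glomerulus.

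Expression values are log2 intensities in arbitrary units, and a step of 1 on this scale means 2-fold. Each gene is read by its own probes, and levels are therefore compared between samples and not between genes. The median of all genes lay between 6.21 and 6.32 on the 8 arrays, and a group mean of 6 was taken as the mark of a dim gene, which 13255 genes reached in some group. The 2 podocyte replicates were more alike than the 2 PEC replicates, with 2 (EGM-MV) and 5 (RPMI) genes over 2-fold apart between replicates in podocytes, against 187 and 210 in PECs. The cell types also differed in mouse line and in how the glomeruli were prepared, and these cannot be told apart. The lists of cell type markers could not be matched to the IDs of the table, so the labelled cell types were not checked against markers here. Differences are given as log2 difference ± SE from a linear model over all 8 arrays (limma), with p-values adjusted over all 22237 genes by the Benjamini-Hochberg method. For each gene the model shares a single error spread among all groups, although PEC replicates differed more. The SE can therefore be too small within PECs and too large within podocytes. A gene was called at an adjusted p below 0.05. Where groups are said not to overlap, the share of all genes with such a separation was not counted. With 2 arrays against 2 a separation can readily arise by chance. The replicate error rests on 2 cultures per cell type, whose EGM-MV and RPMI arrays entered the model as separate arrays.

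Primary podocytes expressed less of the target gene Hey1, the ligand Jag1 and the modifier Lfng than PECs. Over both media Hey1 was 6.14-fold, Jag1 2.13-fold and Lfng 1.27-fold lower in podocytes. Thus 3 of the 10 Notch genes were called between the cell types, all 3 lower in podocytes, where 41.4% of all genes were called in either direction and 21.2% were called as lower. The share of Notch genes that were called was close to these background values. The median difference was -0.09 over the 10 genes and -0.05 over all genes. In RNA from cell populations, fewer expressing cells and less RNA per cell cannot be told apart.

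Within EGM-MV, 2 of the 10 genes were called, Hey1 and Jag1, both lower in podocytes. The background was 32.2% of all genes in either direction and 15.5% lower. Within RPMI, 2 genes were called, Hey1 and Lfng, both lower in podocytes, against 28.4% of all genes in either direction and 12.8% lower. Of all calls in RPMI 54.8% were higher in podocytes, or 65.9% when each array was centred on its median.

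Jag1 and Lfng were lower in the enriched medium in both cell types, and Hes1 was lower in it in podocytes. In podocytes 3 of the 10 genes were called between EGM-MV and RPMI, all lower in EGM-MV, where 13.7% of all genes were called and 5.99% were called as lower. In PECs 2 of the 10 were called, both lower in EGM-MV, where 12.3% of all genes were called and 4.62% were called as lower. With the culture as a replicate block, 2 members were again called in PECs while the share of all genes called there grew to 19.2%. Of all calls in PECs 62.3% were higher in EGM-MV, or 52.2% when quantile normalization was repeated and 71.6% when each array was centred on its median. The median medium difference of the 10 genes was -0.16 in podocytes and -0.14 in PECs, and that of all genes was -0.01 in each cell type.

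**Figure D1:**
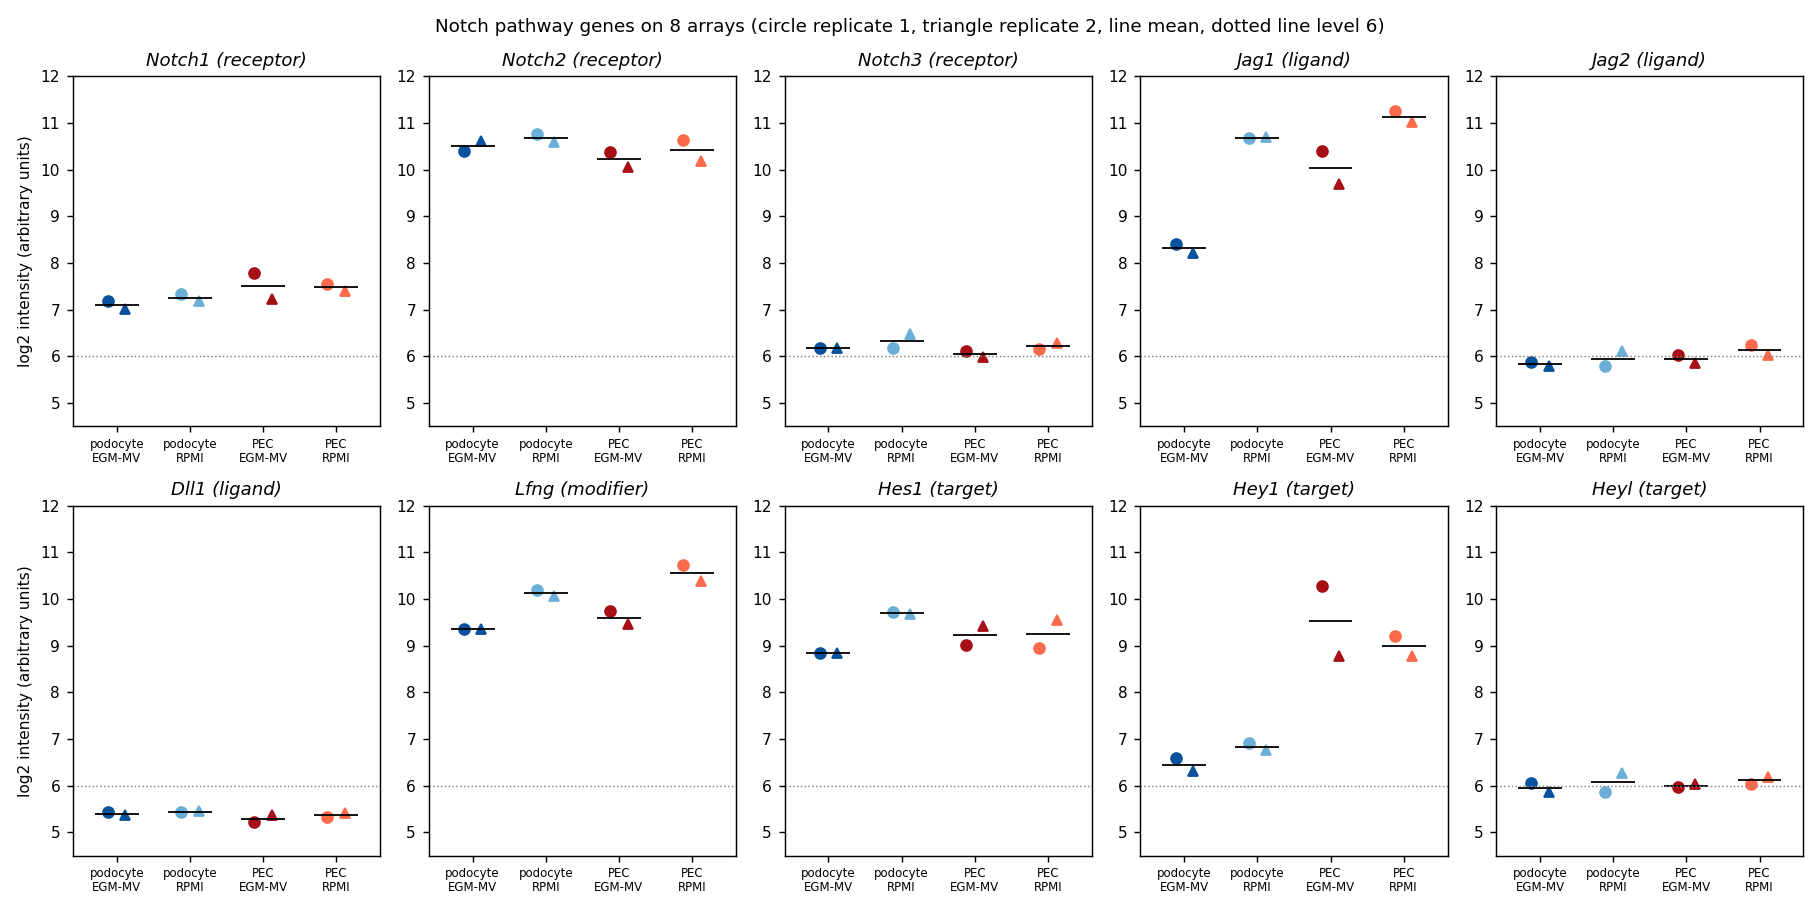
Level of each of the 10 Notch genes on each of the 8 arrays, in log2 intensity (vertical axis) by cell type and medium (horizontal axis). Circles are replicate 1, triangles replicate 2, short lines the group means (n = 2) and the dotted line the level of 6. Hey1 lay between 6.31 and 6.92 on the podocyte arrays and between 8.77 and 10.28 on the PEC arrays, and Jag1 was lowest in podocytes in EGM-MV.

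Among the receptors, none of the 3 was called in any comparison. Notch1 (ENSMUSG00000026923_at), a receptor with broad roles in cell fate choice, read 7.19 and 7.02 in podocytes in EGM-MV and 7.33 and 7.18 in podocytes in RPMI, against 7.79 and 7.23 in PECs in EGM-MV and 7.55 and 7.40 in PECs in RPMI. Podocyte arrays lay below the PEC arrays of the same medium. Over both media the cell types overlapped, and the difference of podocytes minus PECs was -0.31 ± 0.12 (95% confidence interval -0.60 to -0.02, adjusted p = 0.0835). The PEC replicate 2 array in EGM-MV lay nearer to podocytes, and without it the difference was -0.45 (adjusted p = 0.00432), whereas without PEC replicate 1 in EGM-MV it was -0.17 (adjusted p = 0.15). Between media the Notch1 difference was -0.15 ± 0.18 in podocytes and 0.03 ± 0.18 in PECs.

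Notch2 (ENSMUSG00000027878_at), the receptor required for proximal nephron segments in mouse development, read 10.41 and 10.62 in podocytes in EGM-MV and 10.77 and 10.59 in podocytes in RPMI. The PEC arrays read 10.39 and 10.06 in EGM-MV and 10.64 and 10.20 in RPMI. The cell types overlapped, with a difference of 0.28 ± 0.12 (95% confidence interval -0.01 to 0.56, adjusted p = 0.108) over both media. Without PEC replicate 1 in RPMI it was 0.39 (adjusted p = 0.0253), and without PEC replicate 2 in RPMI it was 0.17 (adjusted p = 0.268). The medium differences were -0.17 ± 0.17 in podocytes and -0.19 ± 0.17 in PECs, with 95% confidence intervals of -0.57 to 0.23 and -0.59 to 0.21. Notch3 (ENSMUSG00000038146_at), a receptor best known from vascular smooth muscle, stayed between 5.99 and 6.48 on all 8 arrays, and its cell type difference was 0.11 ± 0.08 (adjusted p = 0.299).

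Of the ligands, Jag1 (ENSMUSG00000027276_at), a Jagged-type ligand presented on the cell surface, was the member with the largest medium difference. Its level was 8.42 and 8.22 in podocytes in EGM-MV and 10.67 and 10.70 in podocytes in RPMI. In PECs it was 10.41 and 9.69 in EGM-MV and 11.26 and 11.03 in RPMI. Within each medium all podocyte arrays lay below the PEC arrays, and within each cell type all EGM-MV arrays lay below the RPMI arrays. How common this was among all genes was not counted.

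The group means of Jag1 were, in ascending order, 8.32 ± 0.14 in podocytes in EGM-MV, 10.05 ± 0.51 in PECs in EGM-MV, 10.69 ± 0.02 in podocytes in RPMI and 11.14 ± 0.16 in PECs in RPMI (SD, n = 2 each). The middle pair did not overlap and was not compared in the model, as it differs in both cell type and medium. The highest pair, podocytes and PECs in RPMI, was not called, at -0.46 ± 0.21 (95% confidence interval -0.95 to 0.04, adjusted p = 0.16). That comparison was called when only the 4 arrays in RPMI were fitted in limma (adjusted p = 0.0326). Its SE in the main fit comes from a spread shared by all groups. PECs in EGM-MV, which do not belong to it, had the largest SD, 0.51. The difference stayed at -0.46 when either PEC array in EGM-MV was left out. In EGM-MV podocytes were lower than PECs by -1.73 ± 0.21, or 3.32-fold (adjusted p = 0.000719). Over both media the difference was -1.09 ± 0.15 (adjusted p = 0.000785). With 1 mean per culture it was called as well (adjusted p = 0.00609).

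Jag1 was 5.16-fold lower in EGM-MV than in RPMI in podocytes, a log2 difference of -2.37 ± 0.21 (adjusted p = 0.000673) that ranked 53 by size among the 22237 genes. Both podocyte cultures showed it, at -2.26 and -2.48. In PECs Jag1 was 2.14-fold lower in EGM-MV, with a difference of -1.09 ± 0.21 (adjusted p = 0.018) and culture values of -0.85 and -1.34. The call in PECs was lost without PEC replicate 1 in RPMI (difference -0.98, adjusted p = 0.064) and when only the 4 PEC arrays were fitted (adjusted p = 0.107). The call in podocytes was lost when a whole podocyte culture was left out (adjusted p = 0.09 and 0.103), with differences of -2.48 and -2.26.

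**Figure D2:**
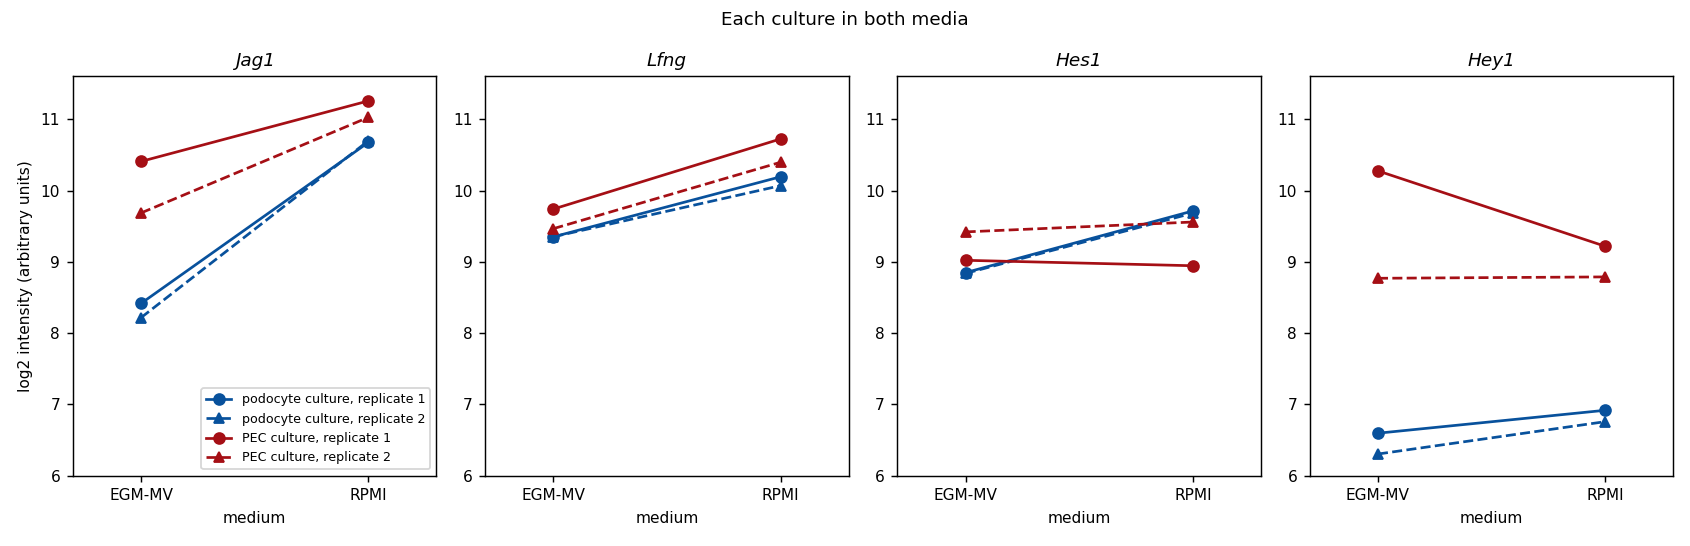
Level of Jag1, Lfng, Hes1 and Hey1 (log2 intensity, vertical axis) in EGM-MV and RPMI (horizontal axis). Each line joins the 2 arrays of 1 culture as paired by replicate number, blue for podocytes and red for PECs. Lines are solid with circles for replicate 1 and dashed with triangles for replicate 2. Jag1 and Lfng were lower in EGM-MV in all 4 cultures, Hes1 was lower in EGM-MV in both podocyte cultures, and the PEC cultures parted for Hey1, at 10.28 and 8.77 in EGM-MV.

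The other ligands were not called in any comparison. Jag2 (ENSMUSG00000002799_at), the second Jagged ligand, lay between 5.80 and 6.24 on the 8 arrays, with a cell type difference of -0.14 ± 0.09 (adjusted p = 0.271). Dll1 (ENSMUSG00000014773_at), a Delta-like ligand, lay between 5.21 and 5.45, below the level of 6 on every array, with a cell type difference of 0.09 ± 0.06 (adjusted p = 0.278). Their medium differences lay between -0.19 and -0.04 and did not pass the test.

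Lfng (ENSMUSG00000029570_at) encodes a glycosyltransferase of the Golgi that extends sugars on Notch receptors and alters which ligands activate them. It read 9.35 and 9.35 in podocytes in EGM-MV and 10.19 and 10.07 in podocytes in RPMI. In PECs it read 9.74 and 9.47 in EGM-MV and 10.72 and 10.40 in RPMI. All EGM-MV arrays lay below all RPMI arrays, whichever the cell type. Lfng fell by 0.78 ± 0.13 on the log2 scale in podocytes in EGM-MV (1.72-fold, adjusted p = 0.00879) and by 0.96 ± 0.13 in PECs in EGM-MV (1.94-fold, adjusted p = 0.00587), in each case against RPMI. The cultures gave -0.84 and -0.72 in podocytes, and -0.98 and -0.93 in PECs. The podocyte call was lost without podocyte replicate 1 in RPMI, replicate 1 in EGM-MV or replicate 2 in EGM-MV (differences -0.72, -0.78 and -0.78, adjusted p = 0.0684, 0.0711 and 0.0617), and the PEC call was lost with only the 4 PEC arrays in the fit (adjusted p = 0.0632).

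Between the cell types Lfng was lower in podocytes by -0.34 ± 0.09 over both media (adjusted p = 0.0218) and by -0.43 ± 0.13 in RPMI (1.35-fold, adjusted p = 0.0471). In EGM-MV the difference was -0.25 ± 0.13 (adjusted p = 0.202). The groups did not overlap within either medium. The call over both media was lost without 1 of 5 arrays (PEC replicate 1 in either medium, podocyte replicate 1 in EGM-MV or podocyte replicate 2 in either medium), with differences between -0.34 and -0.26, and with 1 mean per culture (adjusted p = 0.0737). That in RPMI was lost without PEC replicate 1 in RPMI (difference -0.27, a change of over 1.5 times) or any 1 podocyte array, and when arrays were centred on their medians.

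Because Jag1 and Lfng moved together with the medium, the 250 bases before their start sites are shown (RefSeq, GRCm38.p6). Capitals mark matches on either strand to the core motif of RBPJ, TGGGAA, and to the palindromic E-box of the kind Hey proteins bind, which reads CACGTG. The Jag1 stretch is chr2:137116521-137116770 on the minus strand and that of Lfng is chr5:140607091-140607340 on the plus strand, each written 5′ to 3′.
Jag1: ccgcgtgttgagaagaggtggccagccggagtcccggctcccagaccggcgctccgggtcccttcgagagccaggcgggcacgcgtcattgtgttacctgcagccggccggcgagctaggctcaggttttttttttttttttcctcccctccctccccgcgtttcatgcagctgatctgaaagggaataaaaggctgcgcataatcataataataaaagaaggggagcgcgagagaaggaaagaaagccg
Lfng: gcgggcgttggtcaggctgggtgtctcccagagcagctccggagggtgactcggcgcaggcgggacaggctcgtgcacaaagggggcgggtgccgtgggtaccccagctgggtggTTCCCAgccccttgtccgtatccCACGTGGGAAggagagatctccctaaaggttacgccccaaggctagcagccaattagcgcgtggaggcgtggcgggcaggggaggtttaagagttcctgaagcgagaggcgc
The Lfng stretch held 2 RBPJ core matches, 1 on each strand, and 1 of them was part of the longer form GTGGGAA and overlapped the single E-box. The Jag1 stretch held neither RBPJ form and no E-box. It also lacked the N-box that Hes proteins bind, searched as CACNAG, of which the Lfng stretch held 1. Such stretches were found for 7 of the 10 members (8 stretches, 2 of them for Dll1). None was available for the target genes Hes1, Hey1 and Heyl, which were therefore not searched. Among the stretches found, only that of Lfng held an RBPJ core or an E-box. The N-box also occurred in those of Notch1, Notch2 and Notch3. Of 32851 mouse stretches of this length, 21.6% held the RBPJ core, 5.42% its longer form, 6.02% the E-box and 36.7% the N-box on either strand. A match is a description of letters in these bases, not a site.

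The target gene Hes1 (ENSMUSG00000022528_at) encodes a transcriptional repressor switched on directly by Notch. It read 8.85 and 8.84 in podocytes in EGM-MV and 9.71 and 9.68 in podocytes in RPMI. In PECs it read 9.02 and 9.42 in EGM-MV and 8.95 and 9.56 in RPMI, so that the media overlapped in PECs and not in podocytes. PEC levels, whichever the medium, lay between those of podocytes in EGM-MV and those of podocytes in RPMI.

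In podocytes Hes1 was 1.81-fold lower in EGM-MV, a difference of -0.86 ± 0.20 (adjusted p = 0.0297) with culture values of -0.86 and -0.85. Leaving out any 1 of the 4 podocyte arrays ended the call (adjusted p between 0.136 and 0.155), with differences between -0.87 and -0.84. In PECs the difference was -0.03 ± 0.20 (95% confidence interval -0.50 to 0.44, adjusted p = 0.94), with culture values of 0.08 and -0.14.

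Between the cell types Hes1 differed by -0.38 ± 0.20 in EGM-MV (adjusted p = 0.205) and by 0.45 ± 0.20 in RPMI (adjusted p = 0.145), and by 0.03 ± 0.14 over both media (adjusted p = 0.866). None of these passed. The RPMI difference was 0.14 (adjusted p = 0.596) without PEC replicate 1 in RPMI and 0.75 (adjusted p = 0.0131) without PEC replicate 2 in RPMI, and the difference over both media changed sign between these settings, at -0.12 and 0.19. The 2 PEC cultures differed for Hes1, by 0.40 in EGM-MV and 0.61 in RPMI.

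The target gene Hey1 (ENSMUSG00000040289_at), a repressor of the Hes-related family, had the widest range of the 10 genes, 3.97 on the log2 scale. Podocytes read 6.60 and 6.31 in EGM-MV and 6.92 and 6.76 in RPMI. PECs read 10.28 and 8.77 in EGM-MV and 9.22 and 8.79 in RPMI. All 4 podocyte arrays lay below all 4 PEC arrays, and Hey1 was the only one of the 10 genes of which this held. How common such a separation was among all genes was not counted.

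Hey1 was lower in podocytes by -2.62 ± 0.30 over both media (95% confidence interval -3.31 to -1.93, adjusted p = 0.000284), which ranked 84 by size among all genes. Within EGM-MV the difference was -3.07 ± 0.42, or 8.41-fold (adjusted p = 0.00113), and within RPMI it was -2.16 ± 0.42, or 4.48-fold (adjusted p = 0.00688). The EGM-MV difference was -2.32 without PEC replicate 1 in EGM-MV and -3.82 without PEC replicate 2 in EGM-MV, and it was called in both cases (adjusted p = 0.00047 and 8.96e-05). With 1 mean per culture the difference over both media was called (adjusted p = 0.00316). The call in RPMI was lost when a whole podocyte culture was left out (adjusted p = 0.103 and 0.104), at differences of -2.25 and -2.09.

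**Figure D3:**
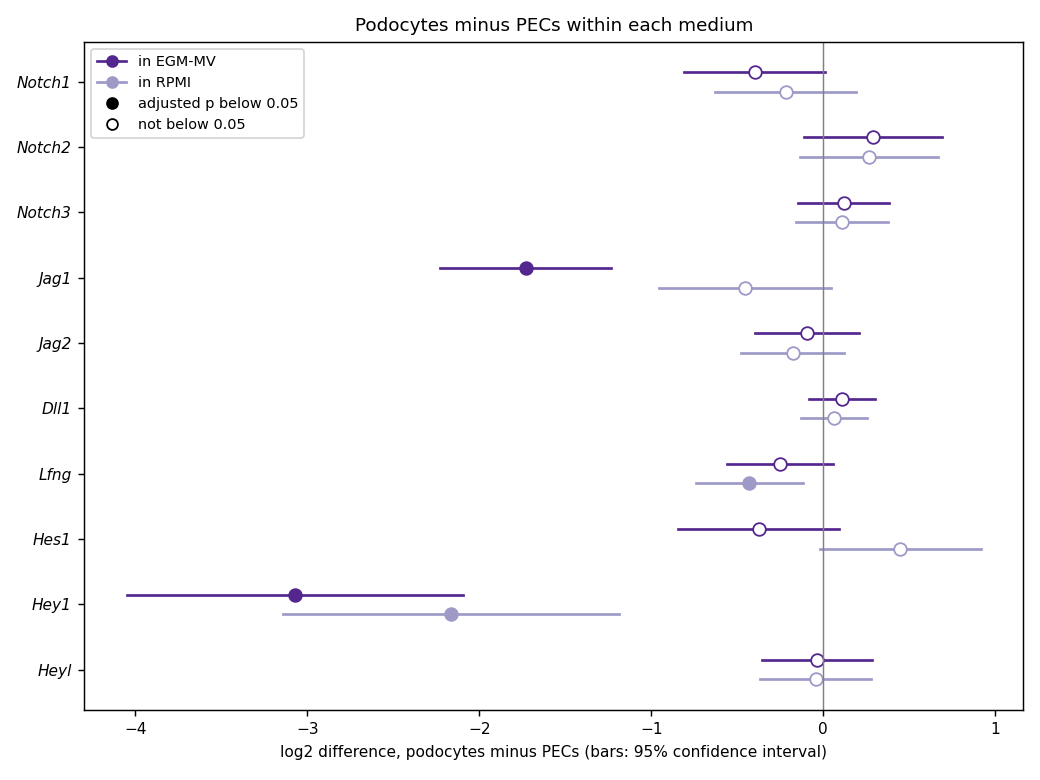
Log2 difference of podocytes minus PECs (horizontal axis) for each Notch gene (vertical axis), in EGM-MV (dark) and in RPMI (light). Points are model estimates, bars 95% confidence intervals, and filled points have an adjusted p below 0.05. Hey1 lay farthest from 0, at -3.07 in EGM-MV and -2.16 in RPMI, and Jag1 passed in EGM-MV at -1.73.

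In ascending order the mean of Hey1 was 6.45 ± 0.21 in podocytes in EGM-MV, 6.84 ± 0.11 in podocytes in RPMI, 9.00 ± 0.30 in PECs in RPMI and 9.52 ± 1.06 in PECs in EGM-MV (SD, n = 2 each). Neighbouring groups of the same cell type were not called as different. The medium difference was -0.39 ± 0.42 in podocytes (adjusted p = 0.695) and 0.52 ± 0.42 in PECs (adjusted p = 0.484). The 2 PEC cultures disagreed, at 1.06 and -0.02, and replicate 2 lay 1.51 below replicate 1 in EGM-MV. The medium difference in PECs was -0.23 (adjusted p = 0.534) without PEC replicate 1 in EGM-MV and 1.27 (adjusted p = 0.0158) without PEC replicate 2 in EGM-MV, so that its sign rested on 1 array.

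Heyl (ENSMUSG00000032744_at), the third target, lay between 5.86 and 6.27 on the 8 arrays and was not called in any comparison. Its cell type difference was -0.04 ± 0.10 (adjusted p = 0.766), and its medium differences were -0.11 ± 0.14 in podocytes and -0.12 ± 0.14 in PECs.

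**Figure D4:**
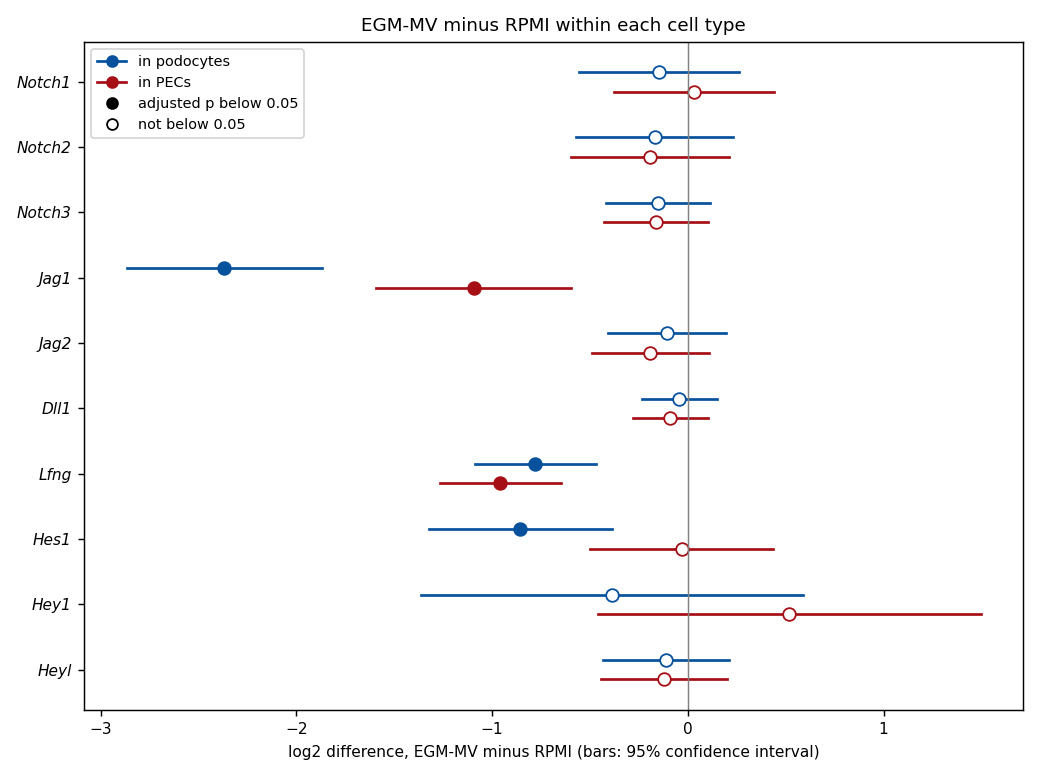
Log2 difference of EGM-MV minus RPMI (horizontal axis) for each Notch gene (vertical axis), in podocytes (blue) and in PECs (red). Points are model estimates, bars 95% confidence intervals, and filled points have an adjusted p below 0.05. Jag1 and Lfng passed in both cell types, Jag1 at -2.37 in podocytes and -1.09 in PECs, and Hes1 passed in podocytes at -0.86.

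Whether the medium difference depended on the cell type was tested as the medium difference in podocytes minus that in PECs. None of the 10 genes was called, where 2.99% of all genes were. The unadjusted p in limma was 0.00337 for Jag1 and 0.0212 for Hes1. The methods' t-test on the same values called 0 of the 10 after adjustment, and 1 of all 22237 genes. The median of this contrast was 0.01 over the 10 genes and 0.01 over all genes. For Jag1 it was -1.27 ± 0.30 (adjusted p = 0.0763). With culture as fixed replicate block, which pairs the media by replicate number, the adjusted p was 0.00761. For Hes1 it was -0.82 ± 0.28 (adjusted p = 0.202, or 0.00958 with the block). The share of all genes called with the block was 7.22%. The contrast was 0.18 ± 0.19 for Lfng (adjusted p = 0.756) and -0.91 ± 0.59 for Hey1 (adjusted p = 0.552).

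Single PEC arrays moved this contrast across the threshold. Jag1 was called without PEC replicate 1 in EGM-MV (-0.91, adjusted p = 0.0493) or without PEC replicate 2 in EGM-MV (-1.64, adjusted p = 0.00791). Hes1 was called without PEC replicate 2 in RPMI (-1.13, adjusted p = 0.0381), and was -0.52 (adjusted p = 0.273) without PEC replicate 1 in RPMI. Hey1 was called without PEC replicate 2 in EGM-MV (-1.66, adjusted p = 0.0285), and was -0.15 (adjusted p = 0.846) without PEC replicate 1 in EGM-MV.

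The genes most alike to Hey1 over the 8 arrays were sought among 4394 others with a mean of at least 6 in some group and a range of at least 1. The 2 with the highest Pearson correlation, ENSMUSG00000025938_at (r = 0.989) and ENSMUSG00000074782_at (r = 0.985), have no name in the files. Jag1 had r = 0.55 with Hey1 and ranked 1625, and Lfng had r = 0.35 and ranked 1845. The 8 arrays come from 4 cultures and are not independent.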

How the data were processed

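Total RNA of 4 primary cultures, each in 2 media, was hybridised to Affymetrix Mouse Gene 1.0 ST arrays. The deposited log2 values were made by the authors with RMA background correction, quantile normalization and a custom probe set definition with 1 value per Ensembl gene; no source used here gives the version of RMA. The values are relative to the other genes, so a change in total RNA per cell is not measured. The normalized table held 22237 genes. Its columns name the group, and replicate numbers came from a second deposited table of 22215 genes. The values of shared genes, sorted within each gene, differed by 0 at most. An array has no read depth, and the 2 arrays per group limit the precision.

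Group means were fitted in limma 3.58.1 (R 4.3.3) with lmFit and eBayes over all 8 arrays, with 4 residual degrees of freedom, two-sided tests and Benjamini-Hochberg adjustment over all genes of the table. The script was tested on simulated data. Alternatives were another normalization, a filter on dim genes, other variance priors, the methods' t-test, arrays or cultures left out, 1 mean per culture and the culture as a replicate block. In the study's methods each culture was kept in both media. The replicate number of the second table was taken as the culture, and so paired the media within a cell type. The sample labels do not state this pairing. The column names of the normalized table give culture numbers that recur in both media. These were not matched to the replicate numbers, although the shared values would allow it, so the pairing was not checked. The replicate differences of the media correlated at r = 0.07 in podocytes and 0.53 in PECs over 22215 genes.

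The 10 members were named by the choice of the genes, and all are described. They and all lists were chosen with earlier results of these data known. Symbols could not be matched to the other Ensembl IDs, so lists of further Notch genes and of cell type markers were not analysed here. Of the 3 genes most alike to Hey1 by the rule, 2 are printed.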

Additional observations from a re-analysis of the deposited data

Results flagged for a closer look

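The EGM-MV minus RPMI difference of Jag1 in podocytes minus that in PECs was -1.27 on the log2 scale. Its test passed with the culture as a replicate block (adjusted p = 0.00761, limma) and not without it (adjusted p = 0.0763). That block took the replicate number as the culture, which the labels do not state. The same contrast for Hes1 was -0.82, with an adjusted p of 0.00958 with the block and 0.202 without it. Jag1 was lower in EGM-MV in all 4 cultures, whereas Hes1 was lower in EGM-MV in both podocyte cultures and split in PECs, at 0.08 and -0.14. With the culture as a random block the adjusted p was 0.0314 for Jag1 and 0.088 for Hes1.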

How the results depend on the processing

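Jag1 and Hey1 remained lower in podocytes over both media and in EGM-MV under all 20 alternatives. The differences over both media were -1.33 to -0.85 for Jag1 and -3.10 to -2.13 for Hey1. The study's own threshold for single p-values was not among these alternatives. With it the methods' t-test called 0 members over both media, 0 in EGM-MV and 0 in RPMI. Of all genes it called 3267, 2184 and 1815 there. Neither Jag1 nor Hey1 therefore passed that threshold between the cell types. For the medium, Jag1 passed it in podocytes and 0 members did in PECs. Repeated quantile normalization gave 5 called genes between the cell types over both media in place of 3, adding Notch1 and Dll1. It called 39.2% of all genes there. Centring each array on its median left 1 of 2 in RPMI, where it called 27% of all genes, and changed the sign of 0 of the 12 called values. Leaving out a whole culture left lone arrays in its groups. Without PEC culture 1 Hes1 over both media turned to -0.22, against 0.29 without PEC culture 2. Without either PEC culture more members passed over both media, in EGM-MV and in the contrast of medium effects, and without PEC culture 2 also in RPMI. The share of all genes called rose in the contrast and hardly moved in the others. Without either podocyte culture the calls of members in RPMI and for the medium were lost, and the share of all genes called fell there too. The methods' t-test after adjustment called 0 in RPMI, 1 for the medium in podocytes and 0 in PECs, against 18.3%, 4.87% and 1.61% of all genes. A fit of only the 4 PEC arrays called 0, against 1.68% of all genes. The cause was not tested.

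Leaving out 1 array at a time moved calls of members in every comparison, and the share of all genes called moved as well. A group's lone array was then assumed to vary like the other groups. In the contrast the fixed replicate block called 2, the random replicate block 1 and 1 medium difference per culture 2, against 7.22%, 5.56% and 7.22% of all genes. The block changed no other call of the 10 genes. A fixed block cannot be combined with the cell type comparisons, and Dll1 was removed by the filter on dim genes. Dim signal limits what can be read for Dll1. It may also limit Jag2, Heyl and Notch3, which stayed near the level of 6 on all arrays. The 2 cultures per cell type limit every comparison. Over the 10 genes and all alternatives that gave a value, 1137 values kept their side of the threshold, 66 of them with a changed sign, 48 lost and 38 gained a call, and 1 reversed.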
